A study of Mus musculus with 2 samples.

Results

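The barcodes described here are the cells of a lung ILC2 sort that held transcripts of the cell division machinery. They were chosen by measured values. A barcode was a member if it passed the filter (at least 500 detected genes and at most 10% of its UMIs, the counted transcript molecules, from mitochondrial genes), held at least 1 UMI of 2 or more of 10 cycling genes (Mki67, Top2a, Cdk1, Ccnb1, Ccnb2, Ube2c, Cenpf, Birc5, Tpx2 and Nusap1, called the rule genes below), and held at least 1 UMI of Gata3 or Il1rl1. Of 15481 barcodes that passed the filter, out of 20361 in all, 182 were members, 66 in WT and 116 in Pac1-/-. Since the 10 rule genes chose the members, their values in the members are given as a description.

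ILC2s, the group 2 innate lymphoid cells, reside in tissues such as the lung and answer epithelial alarmins by making IL-5 and IL-13 and by dividing. A cell that prepares to divide first transcribes genes for DNA replication and histones. Later it transcribes genes that condense chromosomes, build the spindle and drive mitosis, and these mRNAs are scarce in resting cells.

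The study compared lung ILC2s of WT mice with those of Pac1-/- mice, which lack the phosphatase PAC1 that the gene Dusp2 encodes. Per the study's methods, the knockout was on a C57BL/6J background, the mice were 6 to 8 weeks old and matched for sex and age, and lung cells of 4 to 5 mice were mixed for each genotype. The deletion was in the whole animal and no challenge was stated for these samples. Live lineage-negative CD90.2+ ST2+ Sca-1+ cells were sorted, about 13000 per genotype were loaded, and 1 3' library was made from each pool, so no difference below has a replicate check and no test was made. Intervals in parentheses are exact 95% intervals that cover counting error only, not the spread between mice.

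The WT library held 10866 barcodes with 56182065 UMIs, of which 8394 were kept, and the Pac1-/- library 9495 barcodes with 60283285 UMIs, of which 7087 were kept. Kept barcodes had a median of 4186.5 UMIs in WT, and in Pac1-/- the median was 5577 UMIs. The libraries shared 29 barcodes, 15 of them kept in both and 0 of them members in both. As a check of the labels, Dusp2 had 1419 UMIs in 757 kept WT barcodes and 5 UMIs in 5 kept Pac1-/- barcodes. In members, Dusp2 had 60 UMIs in 20 of 66 WT barcodes and 0 UMIs in 116 Pac1-/- barcodes. In counts per 1000000 UMIs of the group (CPM), that is 42.5 against at most 1.12, the limit that a count of 0 allows at 3 counts. That is at least 38.1-fold lower at this limit. The exact interval of the log2 ratio allows a smaller difference, ending at -4.91.

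The rule genes belong to 1 program. Mki67 encodes the coat protein of mitotic chromosomes and Top2a the topoisomerase that untangles them. Cdk1 is the kinase of mitotic entry and Ccnb1 and Ccnb2 are its B-type cyclins. Ube2c feeds the anaphase-promoting complex, Birc5 is a subunit of the chromosomal passenger complex, Cenpf binds kinetochores, and Tpx2 and Nusap1 organise spindle microtubules. Genes of this program are known to be controlled through CCAAT boxes and through the cell cycle genes homology region (CHR), so both were searched in the 250 bases before each gene start in the RefSeq promoter table (GRCm38.p6), which held 9 of the 10 genes. Tpx2 had no entry. The letters searched were CCAAT and, for the CHR, TTTGAA, on both strands.

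A CCAAT was found in 7 of the 9 windows and in 33.8% of all 32851 windows in the table. A CHR was found in 5 of the 9 and in 16% of all windows, and both motifs in 5 of the 9 and in 5.55% of all windows. At least 3 CCAAT matches were found in 5 of the 9 and in 2.79% of all windows. The Birc5 and Nusap1 windows held neither, which says only that these letters are not there. A match is a description of the sequence and not a binding site. The 120 bases before the start of 3 rule genes are shown as examples of each motif and of both together, 5′ to 3′ on the gene's strand, with CCAAT and CHR matches of either strand in capitals:
Ccnb2 (chr9:70421555-70421674, minus strand): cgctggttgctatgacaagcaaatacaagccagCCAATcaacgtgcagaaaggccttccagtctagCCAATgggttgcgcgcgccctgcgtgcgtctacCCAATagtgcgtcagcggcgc
Top2a (chr11:99024190-99024309, minus strand): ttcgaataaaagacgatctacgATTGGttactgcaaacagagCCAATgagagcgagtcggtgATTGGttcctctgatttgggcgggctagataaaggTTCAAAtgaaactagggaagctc
Mki67 (chr7:135716380-135716499, minus strand): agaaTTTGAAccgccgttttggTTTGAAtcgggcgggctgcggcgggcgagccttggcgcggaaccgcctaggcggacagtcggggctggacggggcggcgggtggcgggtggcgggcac
The stretch before Ccnb2 holds 3 CCAAT matches in the forward direction, that before Top2a 3 CCAAT matches and 1 CHR on the opposite strand, and that before Mki67 2 CHR matches in the forward direction. All 3 lie outside the gene as RefSeq starts it. In the GENCODE M21 annotation of GRCm38, Ccnb2 spans chr9:70407692-70421547, Top2a chr11:98992943-99024189 and Mki67 chr7:135689784-135716361, all on the minus strand.

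Members were 0.786% of kept barcodes in WT (0.609 to 0.999) and 1.64% in Pac1-/- (1.35 to 1.96). Most of them sat at the edge of the rule. Exactly 2 rule genes were found in 60 of 66 WT members (90.9%) and in 90 of 116 Pac1-/- members (77.6%), and 36 of these 60 and 52 of these 90 held only 1 UMI of each. Members with 3 or 4 rule genes numbered 5 in WT and 18 in Pac1-/-. Members with 5 or more numbered 1 in WT, or 0.0119% of kept barcodes (0.000302 to 0.0664), and 8 in Pac1-/-, or 0.113% (0.0487 to 0.222). Without the requirement for Gata3 or Il1rl1, 2 kept WT barcodes held 5 rule genes, and the Pac1-/- number was unchanged. These tiers were set after the values were seen. Just outside the rule, 727 kept WT barcodes (8.66%) and 744 kept Pac1-/- barcodes (10.5%) held exactly 1 rule gene with Gata3 or Il1rl1.

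Members were deep barcodes. Their median of 17381 UMIs in WT was 4.15 times, and of 17027.5 UMIs in Pac1-/- 3.05 times, the median of the kept barcodes of their library. The member share was higher in deeper barcodes, over ranges set after the values were seen. In WT, 0 of 914 barcodes with under 2000 UMIs were members, with an exact interval up to 0.403%. The share was 1 of 2946 (0.0339%) from 2000 to under 4000 UMIs and 12 of 2615 (0.459%) from 4000 to under 8000. It was 19 of 1296 (1.47%) from 8000 to under 16000 and 34 of 623 (5.46%) at 16000 UMIs or more. In Pac1-/-, the same ranges held 1 of 617 (0.162%), 1 of 964 (0.104%), 24 of 3359 (0.714%), 30 of 1340 (2.24%) and 60 of 807 (7.43%). Within each of the 5 depth ranges the counting intervals of WT and Pac1-/- overlapped.

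**Figure D1:**
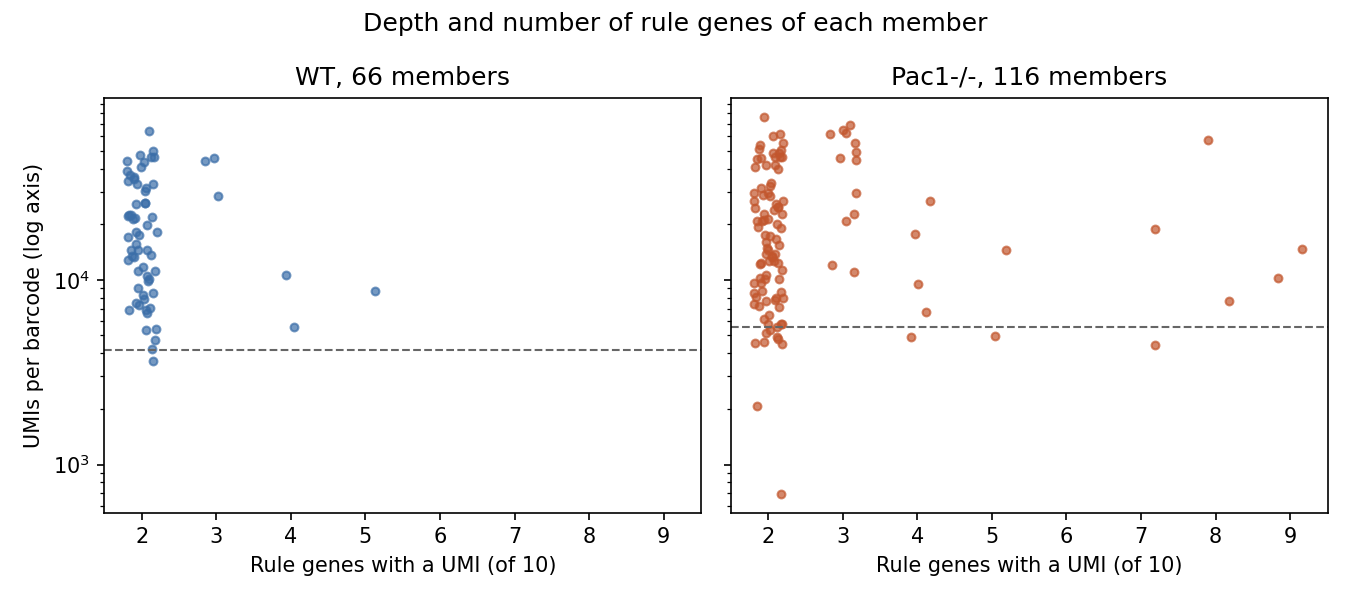
UMIs per barcode on a log axis against the number of rule genes with a UMI, 1 point per member, with small sideways shifts for visibility and a dashed line at the median of kept barcodes. The 60 WT and 90 Pac1-/- members with 2 rule genes lie mostly above that line, and 8 Pac1-/- members against 1 WT member have 5 or more.

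**Figure D2:**
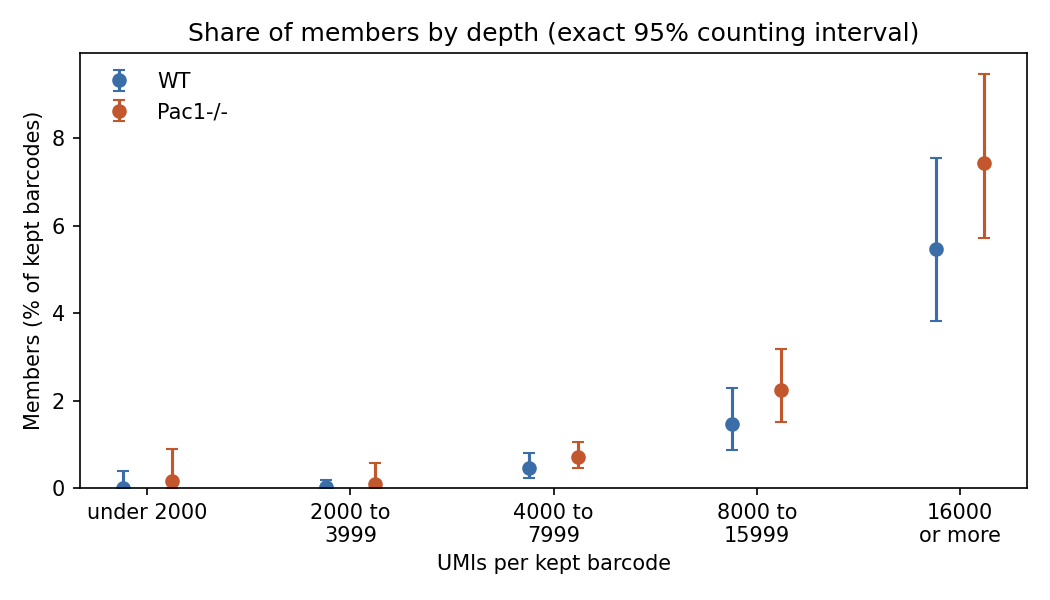
Members as a percentage of kept barcodes in 5 ranges of UMIs per barcode, with exact 95% counting intervals, for WT and Pac1-/-. The share reaches 5.46% of WT and 7.43% of Pac1-/- barcodes in the deepest range, and the intervals of the 2 libraries overlap in every range.

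When each barcode was thinned to 2000 UMIs, leaving out 914 WT and 617 Pac1-/- shallower barcodes, 6 of 7480 WT barcodes (0.0802%, 0.0294 to 0.175) and 12 of 6470 Pac1-/- barcodes (0.185%, 0.0959 to 0.324) met the rule. At 4000 UMIs, a depth chosen after seeing the data, the shares were 0.265% (0.137 to 0.462) and 0.527% (0.353 to 0.756). At 8000 UMIs, also chosen then, they were 0.730% (0.399 to 1.22) and 1.16% (0.755 to 1.71). The Pac1-/- share was the higher at each of these depths, and the intervals overlapped. In the depth ranges it was also the higher from 2000 UMIs up. Under 2000 UMIs the upper end of the WT interval (0.403%) lay above the Pac1-/- share (0.162%). With 1 library of each genotype the difference was not tested.

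Doublets, 2 cells in 1 droplet, were scored but kept. The highest doublet scores, set at 0.8% per 1000 barcodes, took in 29 of 66 WT members (43.9%) against 34.7% of their controls, and 32 of 116 Pac1-/- members (27.6%) against 18.4% of their controls. Without them the member share was 0.483% in WT and 1.28% in Pac1-/-. The scoring missed most doublets: of 400 made by adding pairs of barcodes in each library, it found 31.5% in WT and 31.8% in Pac1-/-, so these values are not free of doublets.

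The levels of the rule genes in members differed by gene. Top2a was the most widespread, with 67 UMIs in 50 of 66 WT members (47.4 CPM) and 133 UMIs in 77 of 116 Pac1-/- members (49.5 CPM). Mki67 had 76 UMIs in 39 WT members (53.8 CPM) and 129 UMIs in 57 Pac1-/- members (48.0 CPM). Tpx2 had 21 UMIs in 19 WT members and 80 UMIs in 61 Pac1-/- members. The pair Mki67 and Top2a made up 23 of the 60 WT members with exactly 2 rule genes and 18 of the 90 in Pac1-/-, and the pair Top2a and Tpx2 made up 12 and 31.

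The other rule genes lay in fewer members. Cenpf had 22 UMIs in 10 WT members and 60 UMIs in 24 Pac1-/- members. Cdk1 had 4 UMIs in 4 WT members and 12 UMIs in 11 Pac1-/- members. Ccnb2 had 7 UMIs in 4 WT members and 30 UMIs in 8 Pac1-/- members, and 27 of these 30 were in members with 5 or more rule genes. Birc5 had 6 UMIs in 6 WT members and 51 UMIs in 20 Pac1-/- members, 38 of them in the top tier. Members held 96.8% of all Ccnb2 UMIs of kept Pac1-/- barcodes (30 of 31) and 75% of all Ube2c UMIs (33 of 44). In WT the shares were 70% for Ccnb2 (7 of 10) and 40% for Ube2c (2 of 5), and lowest for Birc5, at 8.82% (6 of 68). Of Top2a UMIs, members held 12.7% in WT (67 of 528) and 25.6% in Pac1-/- (133 of 520). In both libraries most Top2a, Mki67 and Tpx2 transcripts lay in barcodes outside the members.

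Members were compared with kept barcodes of the same library that held none of the 10 rule genes, 10 for each member and nearest in depth (660 in WT, 1160 in Pac1-/-). The controls were close at the median (17357 and 15142 UMIs) but shallower at the deep end, with upper quartiles of 23054.5 and 20656.8 UMIs against 32661.2 and 31718.2 UMIs in members, because the deep barcodes ran out. For each gene outside the rule with at least 50 UMIs over members and controls, a change of 2-fold or more in CPM was counted. In WT, 59 of 9100 genes were higher (0.648%) and 167 lower (1.84%). In Pac1-/-, 82 of 10136 genes were higher (0.809%) and 96 lower (0.947%). The median log2 ratio over all these genes was 0.04 in both libraries.

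The main question is whether barcodes picked on 10 genes also held the rest of the mitotic program. It was read from 60 mitotic genes the rule did not use, in 2 lists, the mitosis regulators (kinases, checkpoint and anaphase genes) and the spindle and kinetochore genes. In WT the 60 genes summed to 324 CPM in members and 267 in controls, a log2 ratio of 0.28 (0.13 to 0.42). In Pac1-/- they summed to 558 and 306 CPM, a log2 ratio of 0.87 (0.78 to 0.95). Of the 60 genes, 11 in WT and 18 in Pac1-/- had enough UMIs for a ratio of their own. In WT 0 of these 11 were 2-fold higher or lower, with a median log2 ratio of 0.35. In Pac1-/-, 9 of 18 were 2-fold higher and 0 lower, with a median of 0.98, against 0.809% and 0.947% of all genes.

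Single genes of these lists showed the range. Cenpa, the histone variant that marks centromeres, was at 24.8 CPM in WT members and 14.3 in controls (log2 0.80, 0.23 to 1.33), and at 43.2 against 18.6 in Pac1-/- (log2 1.22, 0.90 to 1.52). Prc1, which bundles the spindle midzone, was at 7.08 against 3.54 CPM in WT (log2 1.0, -0.16 to 2.02) and at 6.32 against 2.54 in Pac1-/- (log2 1.32, 0.42 to 2.14). Cks2, a partner of CDK1, was at 35.4 against 28.8 in WT (log2 0.30, -0.16 to 0.73) and 45.8 against 30.2 in Pac1-/- (log2 0.60, 0.31 to 0.88). Not all followed. Pttg1, the anaphase inhibitor securin, was at 32.4 against 32.3 CPM in Pac1-/- (log2 0.00, -0.34 to 0.33). Kif20b, a kinesin of cytokinesis, was at 4.25 against 5.10 CPM in WT and at 17.9 against 9.26 in Pac1-/-.

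The number of rule genes separated the members far more than membership itself. In Pac1-/-, the 60 mitotic genes stood at 319 CPM in barcodes with exactly 1 rule gene against 305 in their own depth-matched controls (log2 0.06, 0.00 to 0.13). With exactly 2 they stood at 355 against 303 (log2 0.23, 0.11 to 0.34), with 3 or 4 at 513 against 304 (log2 0.76, 0.58 to 0.93), and with 5 or more at 3731.1 against 275 (log2 3.76, 3.56 to 3.96). In WT the same steps were 287 against 264 (log2 0.12, 0.05 to 0.19), 299 against 266 (log2 0.17, 0.01 to 0.32), 498 against 263 (log2 0.92, 0.52 to 1.30) and, in the 1 barcode with 5 rule genes, 1146.1 against 252 (log2 2.18, 0.94 to 3.32). When pooled over depth, barcodes just inside and just outside the rule thus both stood close to their controls in these genes. Shallower members with exactly 2 rule genes stood farther off, as given below. A few barcodes carried much of the step at 3 or 4 rule genes. In Pac1-/-, barcodes of 9503 and 4909 UMIs held 66 and 32 of its 316 mitotic UMIs, and in WT 1 of 5550 UMIs held 22 of 67. Per 10000 UMIs, the median barcode of this tier had 3.85 mitotic UMIs in Pac1-/- against 2.89 in controls, and 3.94 against 2.55 in WT. The 8 Pac1-/- members with 5 or more rule genes held 496 of the 1500 mitotic UMIs of all 116 members, and without them the Pac1-/- log2 ratio was 0.36 (0.27 to 0.46).

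**Figure D3:**
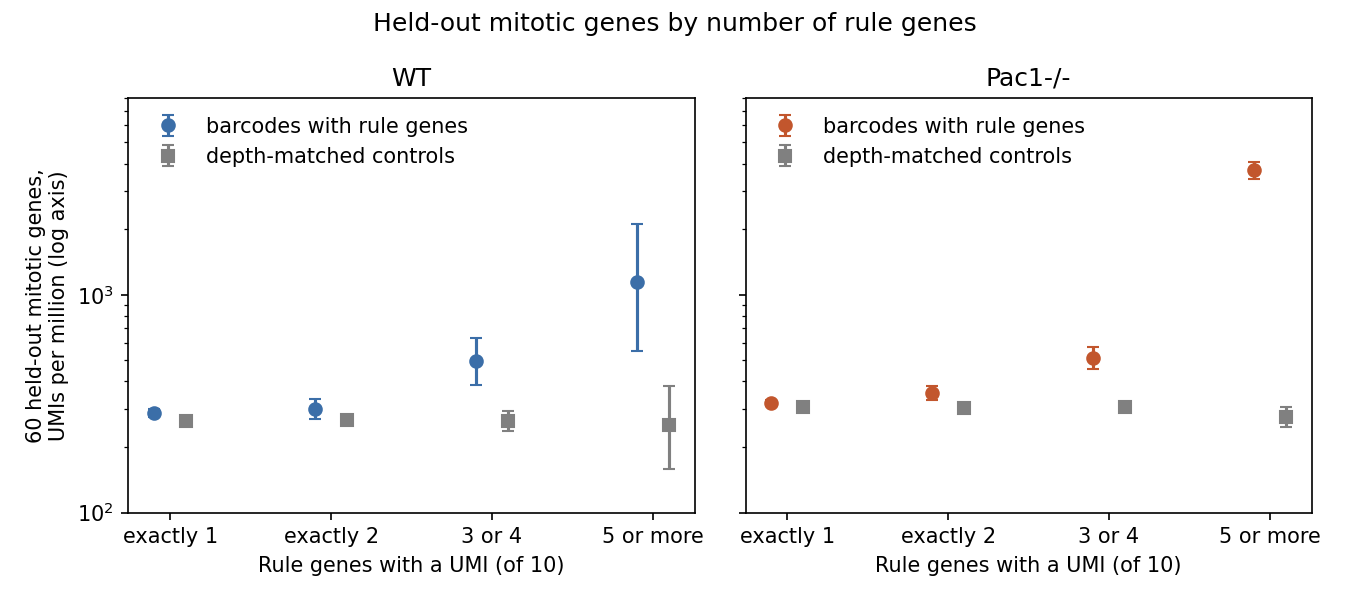
Summed CPM of 60 mitotic genes that the rule did not use, on a log axis, by the number of rule genes, with exact 95% counting intervals; circles are barcodes with rule genes and squares their depth-matched controls. In Pac1-/- the level is 355 against 303 CPM at exactly 2 rule genes and 3731.1 against 275 at 5 or more.

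Depth also divided the members. Members with at most 2 times the median UMIs of their library numbered 14 in WT and 40 in Pac1-/-. In these, the 60 mitotic genes stood at 859 CPM against 235 in controls in WT (log2 1.87, 1.47 to 2.26) and at 1722.3 against 341 in Pac1-/- (log2 2.34, 2.18 to 2.5). In the deeper 52 WT and 76 Pac1-/- members the log2 ratios were 0.10 (-0.06 to 0.25) and 0.50 (0.40 to 0.59). A few barcodes carried much of this contrast. Of the 40 shallower Pac1-/- members, 8 with 3 or more rule genes held 371 of 480 mitotic UMIs, and of the 14 in WT 1 held 22 of 75. In a split made after seeing the data, shallower members with exactly 2 rule genes had log2 ratios of 1.43 (0.96 to 1.87, 13 members, 53 UMIs) in WT and 0.55 (0.25 to 0.84, 32 members, 109 UMIs) in Pac1-/-. Deeper members with exactly 2 had 0.04 (-0.13 to 0.20, 47 members) and 0.18 (0.05 to 0.30, 58 members). Of the deeper members, 26 in WT and 31 in Pac1-/- were among the highest doublet scores, against 3 and 1 of the shallower ones.

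Against the name of cycling cells, these data therefore give a mixed answer. A small set of members held many more mitotic transcripts than their controls. The 47 WT and 58 Pac1-/- deeper members with exactly 2 rule genes stood much nearer to theirs. In single barcodes, 9 of 116 Pac1-/- members had a higher share of mitotic UMIs than every one of the 1160 controls, whose highest was 28.9 per 10000 UMIs. Of these 9, 6 had 5 or more rule genes, 2 had 3 or 4 and 1 had exactly 2. The last was a shallow barcode of 695 UMIs with 9 mitotic UMIs, 2 UMIs of Cenpf, 1 of Mki67 and 1 of Il1rl1. In WT, 1 of 66 members, with 4 rule genes, lay above every control (39.6 against at most 14.6 per 10000 UMIs). Read the other way, the 20 kept barcodes with the highest mitotic share held 1 member in WT and 9 in Pac1-/-, and 16 and 9 of them held none of the 10 rule genes. These 20 were shallow, with medians of 3214.5 UMIs in WT and 4951 in Pac1-/-, so their shares rest on few UMIs and the rule is harder to meet there, and 18 and 17 of them held Gata3 or Il1rl1.

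The barcodes with the most rule genes can be described singly. The Pac1-/- barcode with the highest count held 9 rule genes with 47 UMIs in all, 149 mitotic UMIs against 1 to 11 in its 10 nearest controls, and 10279 UMIs in total. Its Birc5 had 11 UMIs, Cenpf 9, Mki67 8, Ccnb2 6 and Ube2c 5, and its replication genes had 23 UMIs, inside the 7 to 26 of its controls. A second barcode with 9 rule genes had 13 UMIs of Ccnb2, 100 of Hmgb2, 54 mitotic UMIs against 1 to 9, and 67 replication UMIs against 9 to 31. A barcode with 8 rule genes and 7728 UMIs had 50 mitotic UMIs against 1 to 4 and 20 replication UMIs against 2 to 16. These 3 held 3, 4 and 1 UMIs of Il1rl1 and 5, 4 and 2 of Gata3.

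Other barcodes also held many replication or histone transcripts. A Pac1-/- barcode with 5 rule genes and 14514 UMIs held 86 mitotic UMIs against 1 to 6 in its controls and 145 replication UMIs against 9 to 26, among them 12 of Pcna, the sliding clamp, 8 of Tyms, which makes thymidylate, and 5 of Rrm2, a ribonucleotide reductase subunit. It also had the most Top2a (17) and Mki67 (16) of the Pac1-/- members. A Pac1-/- barcode with 4 rule genes and 9503 UMIs held 66 mitotic UMIs against 2 to 8, 88 replication UMIs against 2 to 16, and 50 UMIs of replication-dependent histones, 11 of them the linker histone Hist1h1b. Another with 4 rule genes and 17699 UMIs held 107 replication UMIs against 8 to 37 but 16 mitotic UMIs against 1 to 9. In WT, the barcode with 4 rule genes and 5550 UMIs held 20 UMIs of Mki67, 22 mitotic UMIs against 0 to 2, 15 replication UMIs against 3 to 12, and 21 histone UMIs, 8 of them Hist1h1b. By contrast, the single WT barcode with 5 rule genes had 10 mitotic UMIs against 0 to 8 and 9 replication UMIs, inside the 4 to 18 of its controls.

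Some barcodes with many rule genes went against an ILC2 label. A Pac1-/- barcode with 7 rule genes and 42 mitotic UMIs held 38 UMIs of Lyz2, the lysozyme of myeloid cells, and 6 of Cd79a, a B cell receptor subunit, but 1 UMI each of Gata3, Il1rl1 and Rora and 0 of Il7r. It held 38 of the 39 Lyz2 UMIs of all Pac1-/- members. A Pac1-/- barcode with 5 rule genes had 0.121% mitochondrial UMIs, 3 UMIs of the epithelial gene Epcam and 0 of Rora and Il7r, beside 11 of Il5, 4 of Gata3 and 3 of Il1rl1. The remaining 6 in the top Pac1-/- tier had 9 to 83 UMIs of Rora and 2 to 51 of Il7r, genes that ILC2s express but share with other innate lymphoid cells and T cells. Below that tier, a Pac1-/- barcode with 4 rule genes and 4909 UMIs held 41 UMIs of a stromal marker list. That is 83.5 per 10000, against at most 3.78 in controls of its tier but up to 538 in the controls of all Pac1-/- members. It also held 3 UMIs of Gata3, 7 of Il1rl1, 5 of Il7r and 2 of Rora, and 32 mitotic UMIs against 0 to 3. A barcode with 8 rule genes and 57539 UMIs was among the highest doublet scores. The whole top Pac1-/- tier held 132937 UMIs, so pooled CPM of that tier depends on this barcode. It held 73 of the tier's 496 mitotic UMIs, or 12.7 per 10000 against a tier median of 48.0.

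**Figure D4:**
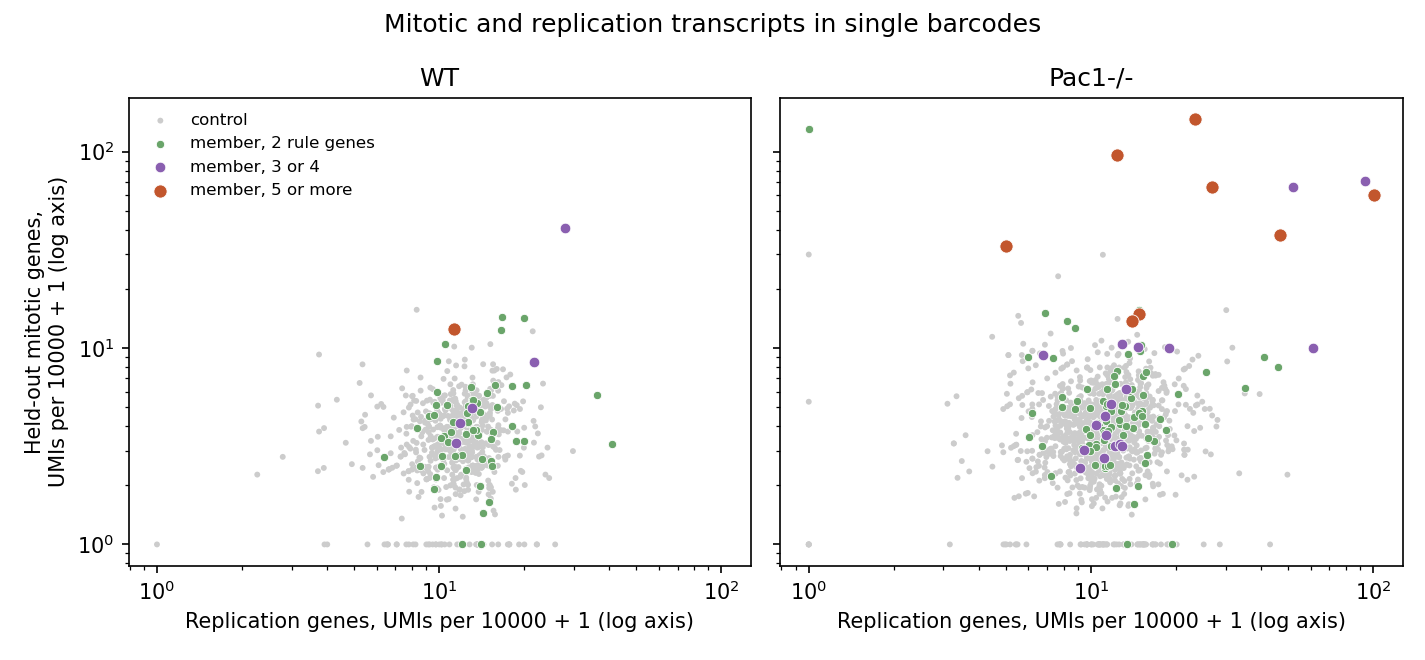
Mitotic genes outside the rule against replication genes in single barcodes, both as UMIs per 10000 plus 1 on log axes, for members by number of rule genes and for depth-matched controls. In Pac1-/- 9 members lie above every control for mitotic genes (28.9 per 10000) and 4 for replication genes (48.7 per 10000), and in WT 1 and 2 do (14.6 and 28.8 per 10000).

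In the top Pac1-/- tier, single genes of the program were often absent from the 80 controls; they are named here after their values were seen. Cdc20, the activator of the anaphase-promoting complex, had 16 UMIs in 5 of 8 barcodes and 0 in controls. Cenpe, a kinetochore motor, had 17 UMIs in 6 and Hmmr, a spindle protein, 15 in 5, both with 0 in controls. Stmn1, which destabilises microtubules, was at 549 CPM against 5.31 (log2 6.69, 5.58 to 8.06), and Cks1b at 226 against 4.55 (log2 5.63, 4.34 to 7.19). In members with exactly 2 rule genes, Stmn1 was at 11.9 CPM and Cks1b at 4.64, against 3.75 and 2.65 in their controls.

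Chromosome and chromatin genes followed the same order. Their list summed to 2181.5 CPM in WT members against 2031.5 (log2 0.10, 0.05 to 0.16) and to 2529.2 against 2016 in Pac1-/- (log2 0.33, 0.29 to 0.36), and to 7356.9 against 2030.4 in the top Pac1-/- tier (log2 1.86, 1.75 to 1.96). Of its 20 genes, 0 of 16 tested in WT and 2 of 18 in Pac1-/- were 2-fold higher, and 0 lower in either library, against 0.648% higher and 1.84% lower of all genes in WT and 0.809% and 0.947% in Pac1-/-. A log2 ratio below 0 was found for 4 of the 16 and 1 of the 18. Hmgb2, a chromatin protein abundant in dividing lymphocytes, was at 506 against 366 CPM in Pac1-/- members (log2 0.47, 0.38 to 0.55). It was at 2459.8 against 414 in the top tier (log2 2.57, 2.37 to 2.77), and at 373 against 370 with exactly 2 rule genes. In WT members Hmgb2 was at 585 against 528 (log2 0.15, 0.04 to 0.25). Lmnb1, a nuclear lamina protein, was at 61.0 against 28.2 CPM in Pac1-/- (log2 1.11, 0.85 to 1.37) and at 35.4 against 28.0 in WT (log2 0.34, -0.12 to 0.77). Hmgn2, a nucleosome-binding protein, was at 51.0 against 30.7 CPM in Pac1-/- (log2 0.73, 0.45 to 1.0) and at 36.1 against 29.7 in WT (log2 0.28, -0.17 to 0.71).

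As a list, DNA replication genes had smaller ratios to controls than the mitotic genes. In WT the intervals of the 2 lists overlapped, and with exactly 2 rule genes their ratios were 0.15 and 0.17. The difference between the lists was not tested. The 57 genes summed to 1202.3 CPM in WT members against 1084.9 (log2 0.15, 0.07 to 0.22) and to 1310 against 1052 in Pac1-/- (log2 0.32, 0.26 to 0.37). Of 39 tested in WT, 1 was 2-fold higher, and of 43 in Pac1-/- 3 were, with 0 lower in either, against 0.648% of all genes higher in WT and 0.809% in Pac1-/-. Of the tested genes, 13 of 39 in WT and 5 of 43 in Pac1-/- had a log2 ratio below 0. In the top Pac1-/- tier the log2 ratio of the list was 1.38 (1.21 to 1.55) and with exactly 2 rule genes 0.20 (0.14 to 0.27). Barcodes of 14514 and 14673 UMIs held 145 and 67 of the 363 replication UMIs of the top tier. Its median barcode had 18.1 replication UMIs per 10000, against 9.87 in controls. The helicase subunit Mcm6 was at 29.7 against 17.9 CPM in WT (log2 0.73, 0.22 to 1.22) and at 32.7 against 18.8 in Pac1-/- (log2 0.80, 0.45 to 1.14). Mcm5, of the same helicase, was at 12 against 6.31 in WT (log2 0.93, 0.08 to 1.71) and at 17.5 against 10.1 in Pac1-/- (log2 0.80, 0.31 to 1.27). Pola1, the catalytic subunit of DNA polymerase alpha, was at 14.2 against 7.69 in WT (log2 0.88, 0.10 to 1.59) and at 16.7 against 9.32 in Pac1-/- (log2 0.85, 0.34 to 1.33). In members with exactly 2 rule genes, Mcm6 had log2 ratios of 0.78 in WT and 0.61 in Pac1-/- and Pola1 0.89 and 0.70, and of the mitotic genes Cenpa had 0.62 and 1.01. In the 14 shallower WT members, however, the Mcm6 log2 ratio was -1.0. These members held 87361 UMIs in total, so that value rests on few Mcm6 UMIs and gives no direction. The replication-dependent histones had list ratios of 0.08 (-0.03 to 0.19) in WT and 0.06 (-0.02 to 0.15) in Pac1-/-. By tier in Pac1-/-, they were -0.03 (-0.14 to 0.07) with exactly 2 rule genes, 0.29 (0.12 to 0.45) with 3 or 4 and 0.54 (0.18 to 0.88) with 5 or more. In WT they were 0.08 (-0.03 to 0.20), 0.22 (-0.14 to 0.55) and, in 1 barcode, -0.81 (-3.91 to 1.15).

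As lists, genes that act before replication or hold cells at rest were close to controls. Of the G1 cyclins and E2F factors, 1 of 16 tested in WT was 2-fold lower and 1 of 17 in Pac1-/- 2-fold higher. Of the resting-cell genes, 1 of 12 in each library was 2-fold higher. Of the cycle inhibitors, 0 of 18 and 0 of 19 were 2-fold apart. Of all genes, 0.648% were higher and 1.84% lower in WT, and 0.809% and 0.947% in Pac1-/-. The list of G1 cyclins and E2F factors had a log2 ratio of 0.12 (0.05 to 0.19) in WT and 0.02 (-0.03 to 0.07) in Pac1-/-. Ccnd2, a D-type cyclin, was at 621 against 544 CPM in WT (log2 0.19, 0.09 to 0.29) and at 372 against 377 in Pac1-/- (log2 -0.02, -0.12 to 0.08), with a WT ratio of -0.14 among members with 3 or more rule genes, and Ccnd3 at 58.8 against 50.9 and at 75.5 against 70.5. Myc, a driver of cell growth, was at 114 against 96.1 in WT (log2 0.25, -0.00 to 0.49) and at 85.6 against 90.2 in Pac1-/- (log2 -0.08, -0.28 to 0.12). Cycle inhibitors differed by -0.04 and -0.02 on the log2 scale. Cdkn1a (p21) had log2 ratios of -0.07 and 0.00, and Cdkn1b (p27) 0.17 and 0.10. In the top Pac1-/- tier the inhibitor list was lower (log2 -0.35, -0.46 to -0.23), and so was the list of resting-cell genes (log2 -0.32, -0.49 to -0.16). Btg1, an antiproliferative gene, had a log2 ratio of -0.80 there. S1pr1, the receptor for egress into blood, was at 11.9 against 4.08 CPM in Pac1-/- members (log2 1.55, 0.90 to 2.16) and at 14.2 against 9.68 in WT (log2 0.55, -0.22 to 1.24).

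ILC2 identity genes other than the rule's Gata3 and Il1rl1 were close to the controls, with list ratios of 0.02 (-0.01 to 0.05) in WT and 0.06 (0.04 to 0.08) in Pac1-/-. None of the 17 genes was 2-fold apart in either library, and few of all genes were (0.648% higher and 1.84% lower in WT, 0.809% and 0.947% in Pac1-/-). Of the 66 WT members, 65 held Gata3, the lineage factor, and 65 held Il1rl1, which encodes the IL-33 receptor ST2, and of the 116 Pac1-/- members 112 and 115 did. Both were part of the rule. In the top Pac1-/- tier the identity list was lower than in controls (log2 -0.22, -0.32 to -0.12). Of the genes named for progenitor-like ILCs, Il18r1 was at 38.3 against 19.0 CPM in Pac1-/- members (log2 1.01, 0.68 to 1.33) and at 30.4 against 29.5 in WT (log2 0.05, -0.45 to 0.51), and Tcf7 had log2 ratios of 0.47 (0.08 to 0.85) and 0.00 (-0.56 to 0.52). The progenitor-like list as a whole had ratios of 0.02 and 0.00.

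Effector genes as a list were near or below the controls. The 14 cytokine and peptide genes summed to 4053.7 against 4101.9 CPM in WT (log2 -0.02, -0.06 to 0.02) and to 3547.5 against 3987.2 in Pac1-/- (log2 -0.17, -0.20 to -0.14). Il5 was at 623 against 812 CPM in WT (log2 -0.38, -0.48 to -0.28) and at 398 against 448 in Pac1-/- (log2 -0.17, -0.26 to -0.08). Il13 was at 183 against 178 in WT (log2 0.05, -0.15 to 0.23) and at 185 against 149 in Pac1-/- (log2 0.31, 0.17 to 0.45), where 1 member held 98 of its 496 UMIs. Without the highest doublet scores the Pac1-/- ratio of Il13 was -0.04, and among the 40 shallower members Il13 stood at -0.32 and Il5 at 0.35. By detection, Il5 was in 87.9% of WT members against 85.6% of controls and in 70.7% against 62.5% in Pac1-/-. Il13 was in 65.2% against 57.6% and in 48.3% against 36.6%. Areg went the other way (83.3% against 90%, 75% against 79.3%), and Calca was mixed (78.8% against 81.2%, 69% against 64%). Detection depends on depth, controls were shallower at the deep end, and these shares were not tested. Csf2, which encodes GM-CSF, was at 1118.7 against 1228.6 in WT (log2 -0.14, -0.21 to -0.06) and at 1326.7 against 1660.7 in Pac1-/- (log2 -0.32, -0.37 to -0.27). Calca, which encodes CGRP, had log2 ratios of 0.09 (-0.01 to 0.20) and 0.03 (-0.07 to 0.13). Lif was at 108 against 70.1 in WT (log2 0.63, 0.37 to 0.88) and at 53.9 against 55.3 in Pac1-/-. Among the 6 WT members with 3 or more rule genes the ratios were 0.19 for Csf2 and -0.14 for Lif. These have the other sign but rest on few barcodes. In the top Pac1-/- tier the cytokine list was lower (log2 -0.56, -0.72 to -0.41), with Il5 at -1.02 and Calca at -1.41. In the Pac1-/- barcode with the most mitotic UMIs, Il13 still had 17 UMIs and Il5 0.

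**Figure D5:**
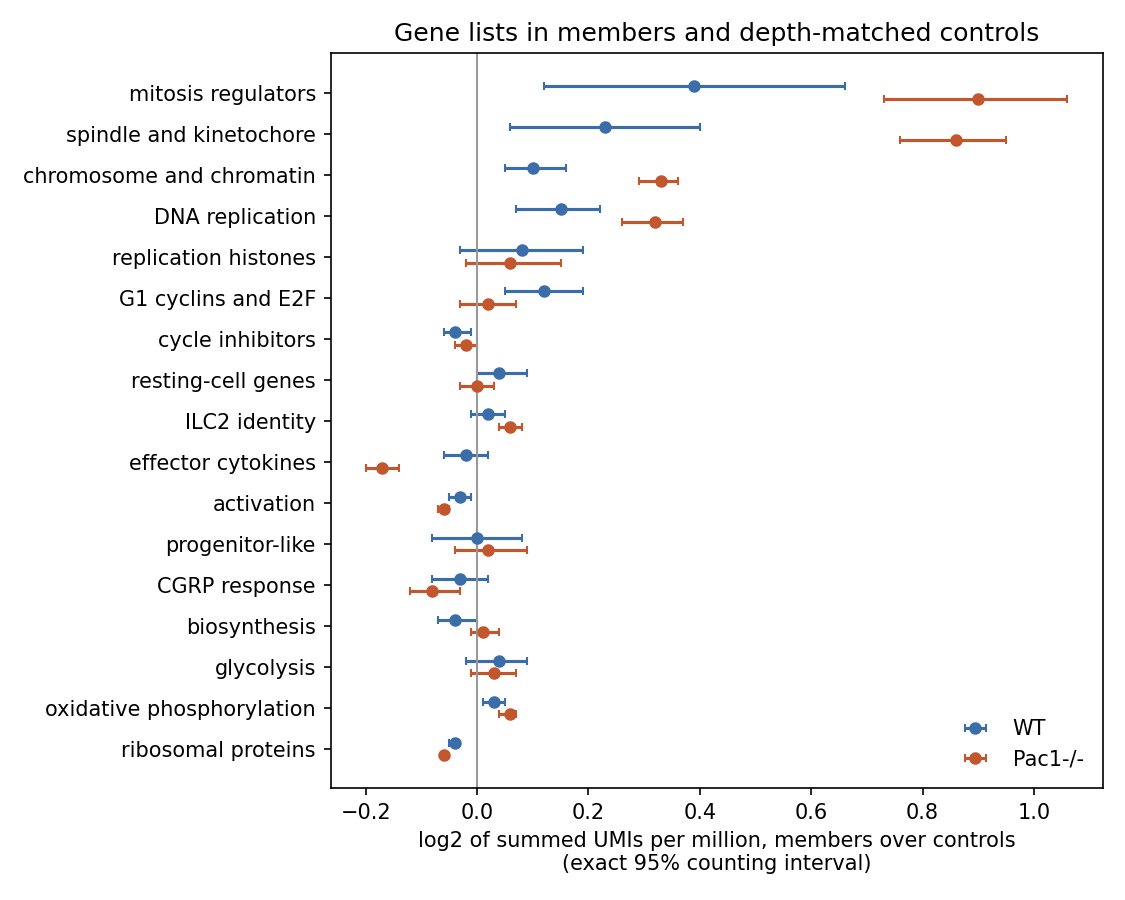
Log2 ratio of summed CPM, members over depth-matched controls, for 17 gene lists in WT and Pac1-/-, with exact 95% counting intervals. The mitosis regulators (0.39 and 0.90) and the spindle and kinetochore genes (0.23 and 0.86) lie farthest right, while ILC2 identity (0.02 and 0.06) and effector cytokines (-0.02 and -0.17) lie near 0.

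Over all genes outside the rule, ranked by the smaller of the 2 libraries' ratios, the 10 highest held 3 cycle genes (Cenpa, Mcm6 and Pola1) and 7 others. Sox4, a transcription factor of lymphoid development, was at 11.3 against 3.46 CPM in WT (log2 1.71, 0.78 to 2.58) and at 24.9 against 13.9 in Pac1-/- (log2 0.84, 0.43 to 1.23). Cd74, the MHC class II invariant chain, was at 34.7 against 14.4 in WT (log2 1.26, 0.77 to 1.73) and at 57.7 against 22.9 in Pac1-/- (log2 1.33, 1.06 to 1.60), but the single WT barcode with 5 rule genes held 17 of its 49 WT UMIs. Lgals1, a galectin, had log2 ratios of 0.46 (0.33 to 0.58) and 1.04 (0.96 to 1.12), and the chemokine Cxcl10 0.67 (0.36 to 0.97) and 1.13 (0.92 to 1.34), with -0.40 among WT members with 3 or more rule genes. Ptgs2, the cyclooxygenase COX-2, had log2 ratios of 0.58 (0.23 to 0.92) and 1.46 (1.17 to 1.74), with 59 of its 140 Pac1-/- UMIs in the top tier. Ass1, of arginine synthesis, had ratios of 0.68 and 1.01 and Rasgrp2, a Rap activator, 0.82 and 0.73. Among the 10 lowest were Bambi, a TGF-beta pseudoreceptor, at 35.4 against 84.9 CPM in WT (log2 -1.26, -1.70 to -0.85) and at 75.5 against 115 in Pac1-/- (log2 -0.61, -0.82 to -0.40), and the neutrophil chemokine Cxcl1, with log2 ratios of -0.62 and -0.50 (0.05 in WT without the highest doublet scores and 1.28 in the 14 shallower WT members). Sgk1, a kinase, had ratios of -0.54 and -0.49 and Tsen54, a tRNA splicing subunit, -1.77 (-4.85 to 0.15) and -1.34 (-2.58 to -0.32).

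Markers of other cell types were given as whole lists. The T cell list, which ILC2s partly share, had log2 ratios of 0.09 and 0.03, and Cd4, Cd8a and Cd8b1 were at 0 in the members of both libraries. The NK cell and ILC1 list of 9 genes had 17 UMIs in WT members, 15 of them Nkg7, and 95 UMIs in Pac1-/- members, 62 of them Nkg7, with 0 to 5 UMIs per WT member and 0 to 13 per Pac1-/- member. Its ratio was 1.95 (1.03 to 2.82) in WT and 2.68 (2.27 to 3.10) in Pac1-/-. Eomes, Prf1 and Klra8 of that list were at 0 in members of both libraries, and 56 of 66 and 92 of 116 members held none of the 9 genes. Nkg7, a granule protein, was in 8 WT and 18 Pac1-/- members. The B cell list had log2 ratios of -0.03 and -0.12, the plasma cell list 0.19 and -0.04, the ILC3 list 0.32 and 0.60, the granulocyte list -0.00 and 0.06, the erythroid list 0.15 and 0.02 and the epithelial list -0.28 and -0.04. The myeloid list had 2 UMIs in WT and 46 in Pac1-/-, 40 of them in 1 member. The stromal list had 2 and 43, of which 41 were in 1 member, and 40 of the 43 were Mgp. That member was the barcode with 4 rule genes and 4909 UMIs. Its mitotic share of 65.2 per 10000 lay above every control. Il17a had 7 UMIs in 1 WT member and 11 UMIs in 5 Pac1-/- members. The part of these transcripts in the results above was not tested.

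In members, Pac1-/- was set beside WT, with the same ratio in the controls. Of 6755 genes with at least 50 UMIs in members, 290 were 2-fold or more higher in Pac1-/- (4.29%) and 136 lower (2.01%), with a median log2 ratio of 0.14 in members and 0.15 in controls. The 60 mitotic genes were higher in Pac1-/- members (log2 0.79, 0.63 to 0.94), against 0.20 (0.13 to 0.26) in controls, and among members with fewer than 5 rule genes the ratio was 0.30 (0.14 to 0.47). The replication list had a ratio of 0.12 (0.04 to 0.21) in members and -0.04 in controls, below the median gene of the members. The cytokine list had a ratio of -0.19 (-0.24 to -0.14) in members and -0.04 (-0.06 to -0.02) in controls.

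The genes farthest apart between the libraries in members were mostly as far apart in the controls. Gm43305 was at 1571.9 CPM in WT and 71.8 in Pac1-/- members (log2 -4.45, against -4.37 in controls), Gm10076 had ratios of -3.06 and -3.05 and Gm42031 of -3.16 and -3.31. Mmp16, a membrane metalloproteinase, had 1 UMI in WT and 168 in Pac1-/- members (log2 6.46, against 5.54), and Gm47015 6 and 274 (log2 4.58, against 4.24). Zfp990, a zinc finger gene, had 0 and 151, at least 26.4-fold higher at the limit of 3 counts. The exact interval of its log2 ratio allows a smaller difference, starting at 4.41. Lgals3, a galectin, was at 19.1 and 122 CPM (log2 2.67, 2.10 to 3.29, against 3.47 in controls). Farther from the controls' ratio were Tnfsf8, the CD30 ligand, with 76 and 6 UMIs (log2 -4.59, -6.08 to -3.40, against -1.17 in controls), and Ifi27l2a, an interferon-induced gene, with 8 and 307 UMIs (log2 4.33, 3.34 to 5.56, against 3.10). Both lay in few barcodes, since 1 WT member held 51 of the 76 Tnfsf8 UMIs and the 307 Ifi27l2a UMIs were in 16 Pac1-/- members, 75 of them in 1. Il5 was lower in Pac1-/- members (log2 -0.65, -0.78 to -0.51), and in controls the ratio was -0.86 (-0.90 to -0.82).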

How the data were processed

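Members and gene lists were chosen with earlier results of these data known. Per the labels and the study's methods, the authors made 10x Genomics 3' v3.1 libraries and ran Cell Ranger 6.1.1 on mm10 (the file headers name 4.0.0); the annotation release is not given in the sources used here. The deposited counts are whole UMIs per gene and barcode. Doublets were scored and removed only as an alternative. Depth-matched controls were drawn without replacement, deepest member first. UMIs were summed over members and over controls and scaled to CPM. Ratio intervals are exact conditional binomial, levels exact Poisson and shares Clopper-Pearson, each at 95%. Functions were tested on simulated data. Genes named were the 10 rule genes, a fixed set, the 3 highest and 3 lowest of each list with at least 50 UMIs in each library, the 10 highest and 10 lowest overall (10 CPM added), the 5 highest and 5 lowest between libraries, and markers; not every such gene is printed. Alternatives covered the rule, filter, doublets, depth, controls and scaling. Python 3.11.15, numpy 2.4.6 and scipy were used.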

Additional observations from a re-analysis of the deposited data

Results flagged for a closer look

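There were 4 results with intervals on opposite sides of 0 in WT and Pac1-/-, members over controls, and in no case was the difference between the libraries tested. Areg, which encodes the tissue repair factor amphiregulin, had a log2 ratio of 0.24 (0.16 to 0.33) in WT and -0.14 (-0.21 to -0.08) in Pac1-/-, and both directions turned (to -0.47 and 0.06) with 3 of the 10 rule genes required. The endothelial list had ratios of -0.49 (-0.97 to -0.04) and 0.45 (0.17 to 0.73), and nearly all of it was Pecam1 (42 of 44 UMIs in WT and 125 of 129 in Pac1-/-), an adhesion molecule also known from leukocytes, at -0.48 (-0.97 to -0.02) and 0.48 (0.19 to 0.76). Igkc, an immunoglobulin light chain, had ratios of 1.62 (0.75 to 2.43) and -1.64 (-3.11 to -0.47), with all 18 WT UMIs in 1 member and 6 UMIs in 3 Pac1-/- members.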

How the results depend on the processing

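Each genotype was 1 library, so no result has a replicate check and leaving out a library was not possible. No paired analysis was possible because each genotype has 1 library and no test was made. Depth limits the rest, since 36 of 66 WT and 52 of 116 Pac1-/- members held only 1 UMI of each of 2 genes. Alternatives on 13 lists, shares and counts gave 45 values close to those reported, 43 that moved and 2 that reversed, and on 81 gene results 638, 149 and 16. The causes were not tested.

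The member share was 0.0802% in WT and 0.185% in Pac1-/- when thinned to 2000 UMIs, 0.265% and 0.527% at 4000 and, in Pac1-/-, 1.16% at 8000, these last depths being chosen after seeing the data. It was 0.0715% and 0.367% with 3 of the 10 genes required, and 0.483% and 1.28% without the highest doublet scores.

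With 3 genes required, the members-over-controls log2 ratio of the mitotic list was 1.04 in WT and 1.85 in Pac1-/-, of the replication list 0.63 in Pac1-/- and of the cytokine list -0.32 in WT. With 6 WT members left, the WT genes that reversed were Ccnd2 (-0.14), Hlf (-0.38), Areg (-0.47), Csf2 (0.19), Lif (-0.14) and Cxcl10 (-0.40). In Pac1-/- Areg (0.06) reversed. Without the highest doublet scores the mitotic ratios were 0.50 and 1.31, and in Pac1-/- replication was 0.48 and cytokines -0.33, while Cxcl1 in WT (0.05) and Il13 in Pac1-/- (-0.04) reversed.

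In members of at most 2 times the median depth, mitotic ratios were 1.87 and 2.34, replication 0.37 and 0.53 and cytokines -0.21 and -0.43. There Mcm6 (-1.0, from few UMIs), Ccnd2 (-0.95), Gata3 (0.16), Areg (-0.81) and Cxcl1 (1.28) reversed in WT, and Il5 (0.35) and Il13 (-0.32) in Pac1-/-. Cytokines were -0.06 and -0.21 when scaled by the median gene, and in Pac1-/- -0.20 with 5 controls per member and -0.07 with controls matched on detected genes. Added after seeing the data, controls drawn with replacement gave 0.98 for mitotic and 0.37 for replication genes in Pac1-/-, and members with fewer than 5 rule genes 0.36 and 0.24.

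Genes past 2-fold numbered 226 of 9100 in WT and 178 of 10136 in Pac1-/- at a minimum of 50 UMIs. They numbered 616 and 517 at 20, and 4967 and 4848 at 1. More genes are tested at a lower minimum, so these counts cannot be compared as shares. For Pac1-/- over WT in members, scaling by the median gene gave -0.01 for replication, which reversed, and -0.33 for cytokines. With 3 genes required the mitotic, replication and cytokine ratios were 1.01, 0.36 and 0.13, the last reversed. Without the highest doublet scores they were 1.02, 0.29 and -0.35, and with fewer than 5 rule genes 0.30 for mitotic and 0.04 for replication genes.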
